A study of Rattus norvegicus with 6 samples.

Results

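The genes described here encode the proteins that hold, fuse and retrieve synaptic vesicles in nerve terminals. A list of 55 such genes was drawn up by their known roles, with no threshold on their values, and 48 of them were represented on the arrays among 4736 genes in all. The other 7 (Sypl1, Synpr, Slc17a6, Stx2, Napb, Rims2 and Pclo) had no probe set assigned to them alone. Male Sprague-Dawley rats received saline or LSD at 1.0 mg/kg, each injected intraperitoneally, and expression was read 90 min later in their medial prefrontal cortex (mPFC). LSD is a hallucinogenic serotonin receptor agonist. There were 3 Saline and 3 LSD arrays, and both groups were of the same strain and sex. Per the labels, 4 rats were treated in each group and their tissue was pooled, whereas the paper describes each array as an independent replicate made from a pair of pooled rats. Because these accounts differ, the p-values given here refer to spread between arrays alone, and that spread may be technical. The sample descriptions contain a line naming the opposite treatment to the title and the treatment label. Groups follow the title and the treatment label. Were the other line correct, all signs below would be inverted.

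A vesicle filled with transmitter is tethered by synapsins and the active zone scaffold, primed by the Unc13 and Rims proteins, and fused when SNARE proteins of the vesicle (Vamp1, Vamp2) zip together with those of the plasma membrane (Stx1a, Snap25). Nsf with its adaptor Napa pulls the spent SNARE complex apart, and the membrane is taken back in by clathrin, its adaptor AP-2, dynamin and the lipid phosphatase synaptojanin. In the cortex these proteins serve both glutamatergic and GABAergic terminals. Neuronal transcripts are made in the cell body, so among neurons the mPFC tissue reports on those located there. Some members, such as Dnm2, Stx4 and Vamp3, are not confined to neurons, so the reading covers other cells as well.

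No member of this machinery differed between LSD and saline by limma at an adjusted p of 0.05. Of the 48 members, 0 passed, against 1 of 4736 genes (0.0211%) over the whole array, and the lowest adjusted p among members was 0.971. At an unadjusted p below 0.05 there were 3 members, or 6.25%, beside 3.63% of all genes. These were Synj2 and Stx7, with lower values after LSD, and Rims1, with higher values. The direction was divided almost evenly, with 25 members higher and 23 lower, and the median log2 change was 0.012, beside 0.0056 over all genes. Changes ran from -0.33 to 0.20 on the log2 scale. In tissue extracts, fewer cells of a type and less RNA per cell cannot be told apart.

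With the brightest probe set standing for each gene, the arrays bounded the size of the differences in probe set signal. The 95% interval of the fold change stayed within 1.5-fold in both directions for 47 of 48 members, beside 4452 of 4736 genes. The exception among members was Doc2b, a calcium sensor for release, whose interval reached 1.57-fold. Here Saline 3 read 6.24 while the other 5 arrays lay between 5.14 and 5.75. Within the tighter limit of 1.25-fold lay 32 of 48 members (66.7%), beside 50.4% of all genes. The spread between arrays of a group was small in these transcripts, with a median pooled SD of 0.0935 log2 units over members and 0.124 over all genes. It was lowest for Napa, at 0.0253, and highest for Doc2b, at 0.467. Of the 48 members, 36 lay at or above the median level of all genes. RMA compresses changes in dim probe sets, so the intervals of dim members may be too narrow for their transcripts. Unc13c and Lin7c, for example, averaged 3.15 and 3.28 after saline, where the lowest value on the arrays was 2.11. The comparisons with all genes were not matched for level. Over all 71 member probe sets the interval passed 1.5-fold in 3. These were the set of Doc2b and a dimmer set each of Sv2b (1.54-fold) and Synj1 (1.60-fold). The bound for Sv2b and Synj1 therefore depends on the probe set. The same count over all probe sets of the array was not made.

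**Figure D1:**
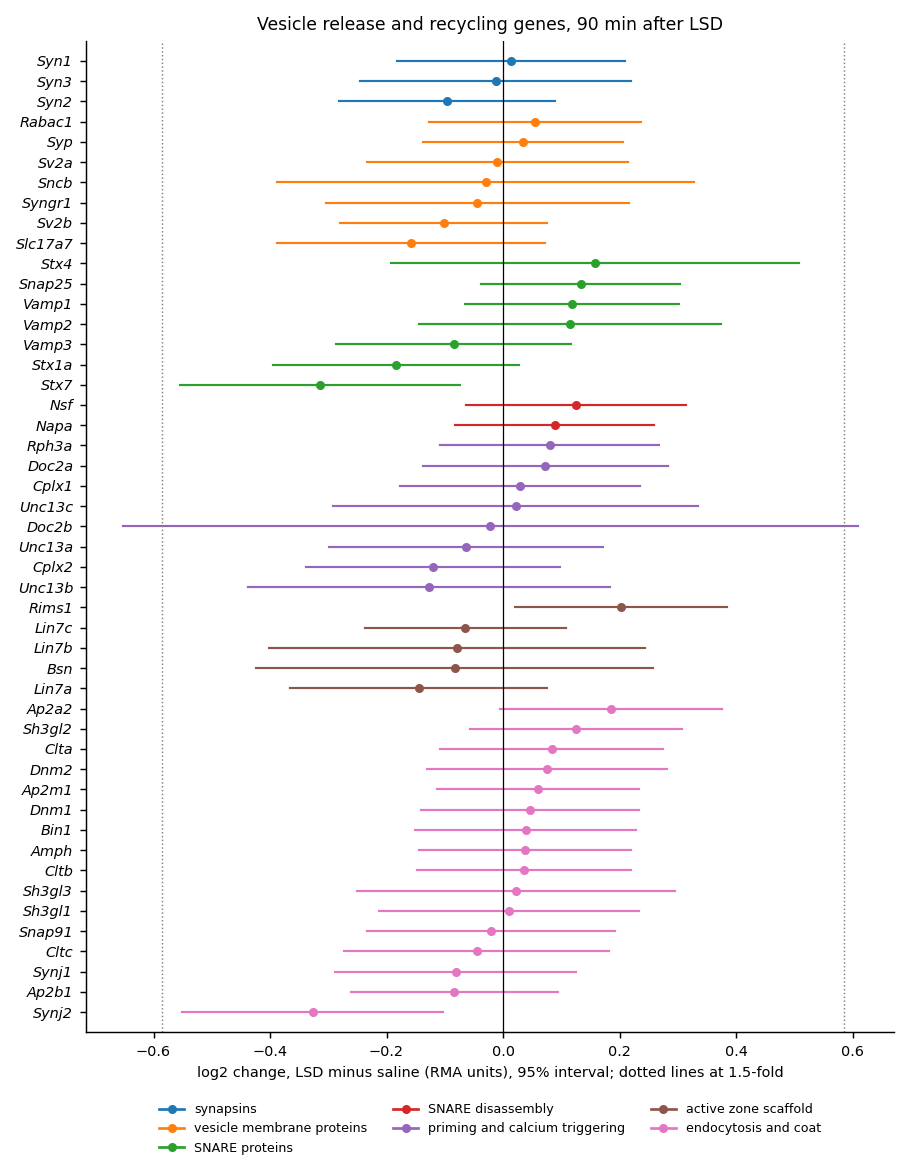
Log2 change (LSD minus Saline) of each of the 48 measured members, grouped by role, with its 95% interval from limma. The intervals of Synj2, Stx7 and Rims1 exclude 0 before adjustment, and 0 of 48 members passed an adjusted p of 0.05.

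In 10 members the groups did not overlap. All 3 LSD arrays lay above all Saline arrays in 7 members (14.6%, beside 6.97% of all genes), namely Snap25, Vamp1, Napa, Rims1, Sh3gl2, Ap2a2 and Ap2m1. All 3 LSD arrays lay below in Sv2b, Stx7 and Synj2 (6.25%, beside 3.34% of all genes). Among genes above the median level, 7 of 36 members did not overlap in either direction (19.4%, beside 13.2% of such genes). Saline 1 stood apart from the other arrays, in that 78 of its probe sets were over 1 log2 unit away from the average of the other 5, compared with 2 to 21 probe sets for each other array. Among members the distance from the rest exceeded 0.3 log2 units in 5 genes for Saline 1 and in 1 to 3 genes for each other array. Without Saline 1 there were 5 members with an unadjusted p below 0.05 (beside 9.31% of all genes), and 22 without overlap (45.8%, beside 28.8% of all genes), since separation is easier to reach with fewer arrays. Without Saline 2 there was 1 with an unadjusted p below 0.05 (beside 2.81% of all genes) and 15 without overlap (31.2%, beside 16.7%). Without Saline 3 there were 16 without overlap (33.3%, beside 17.0%).

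Synapsins are phosphoproteins that hold vesicles in the reserve pool. Syn1 read 8.71, 8.55 and 8.76 on the Saline arrays and 8.68, 8.69 and 8.69 on the LSD arrays, in log2 units. The LSD values lay inside the range of the Saline values, and the change was 0.01 ± 0.085 (SE), with an interval that reached no more than 1.16-fold. Syn3 differed by -0.01 and Syn2 by -0.10, both with overlapping groups. Syn2 has further probe sets that gave the opposite sign, which are described with the other genes read more than once.

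Among 7 measured genes grouped in the list with the vesicle membrane, 2 were higher and 5 lower. Their median was -0.03, and none had an unadjusted limma p below 0.05. Synaptophysin (Syp), the most commonly used vesicle marker, read 9.28, 9.19 and 9.21 after saline and 9.27, 9.26 and 9.26 after LSD. Its groups overlapped and its change was 0.03 ± 0.075 (SE), bounded at 1.15-fold. Slc17a7, which loads glutamate into vesicles of cortical excitatory neurons, read 4.85, 4.76 and 4.87 after saline and 4.51, 4.68 and 4.83 after LSD. LSD 3 lay among the Saline values, and the change of -0.16 ± 0.10 (SE) corresponded to a 1.12-fold lower mean, with a bound of 1.31-fold. Its probe set lay below the median of every array, in a tissue where the gene is known to be abundant, and RMA compresses changes in dim probe sets. Sv2b, a transporter-like glycoprotein of the vesicle, differed by -0.10 in its brightest probe set, Rabac1 by 0.05, Syngr1 by -0.04, Sncb by -0.03 and Sv2a by -0.01. The mean of the 7 genes, taken per array as deviations from each gene's own mean, lay between 0.010 and 0.027 on the Saline arrays. On the LSD arrays it lay between -0.033 and 0.0010. The same mean over all 48 members overlapped between groups (-0.020 to 0.043 after saline, -0.010 to 0.0014 after LSD). Among the other roles it was separated only for the 2 SNARE disassembly genes, and there it was higher after LSD.

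SNARE proteins form the fusion complex. Of 7 measured, 4 had a higher mean after LSD and 3 a lower mean, and their median was 0.11 log2 units. Snap25, which contributes a pair of helices to the complex, read 10.65, 10.62 and 10.59 after saline and 10.75, 10.78 and 10.73 after LSD. Every LSD array was above every Saline array by a margin that exceeded the spread within either group (10.62 ± 0.028 and 10.75 ± 0.024, SD, n = 3 each). The change was nonetheless small, 0.13 ± 0.074 (SE) or 1.10-fold, with an unadjusted p of 0.109 and an adjusted p of 0.971 in limma. Stx1a, the plasma membrane partner of Snap25, read 9.90, 9.87 and 9.73 after saline and 9.53, 9.68 and 9.74 after LSD. LSD 3 and Saline 3 coincided, so the groups overlapped, and the change was -0.18 ± 0.092 (SE), or 1.14-fold lower.

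Vamp2, the principal vesicle SNARE of the forebrain, read 9.51, 9.86 and 9.87 after saline and 9.94, 9.80 and 9.85 after LSD. Saline 1 was the low array and the other 5 overlapped. The change of 0.11 ± 0.113 (SE) became -0.0075 when arrays were weighted by their quality. Its relative Vamp1 read 8.09, 8.06 and 8.18 after saline and 8.20, 8.19 and 8.30 after LSD. The groups were separated by a narrow margin, between Saline 3 and LSD 2, and the change was 0.12.

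Stx7, a SNARE of late endosomes and not of the release site, read 5.39, 5.67 and 5.68 after saline and 5.17, 5.28 and 5.34 after LSD. Saline 1 was the nearest to the LSD arrays, but no LSD value reached it. The mean was 1.24-fold lower after LSD, with a log2 change of -0.31 ± 0.105 (SE) and an upper bound of 1.47-fold, and it did not pass the adjusted threshold (limma, adjusted p = 0.971). Stx4 (0.16) and Vamp3 (-0.08), which serve fusion at the plasma membrane in many cell types, had overlapping groups.

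Both measured genes of SNARE disassembly were higher after LSD, Nsf by 0.13 and Napa by 0.09. Napa read 9.79, 9.73 and 9.80 after saline and 9.85, 9.87 and 9.86 after LSD, which did not overlap, whereas LSD 1 and Saline 1 coincided for Nsf at 6.45 (6.45, 6.41 and 6.36 after saline, 6.45, 6.62 and 6.54 after LSD). Neither had an unadjusted p below 0.05.

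**Figure D2:**
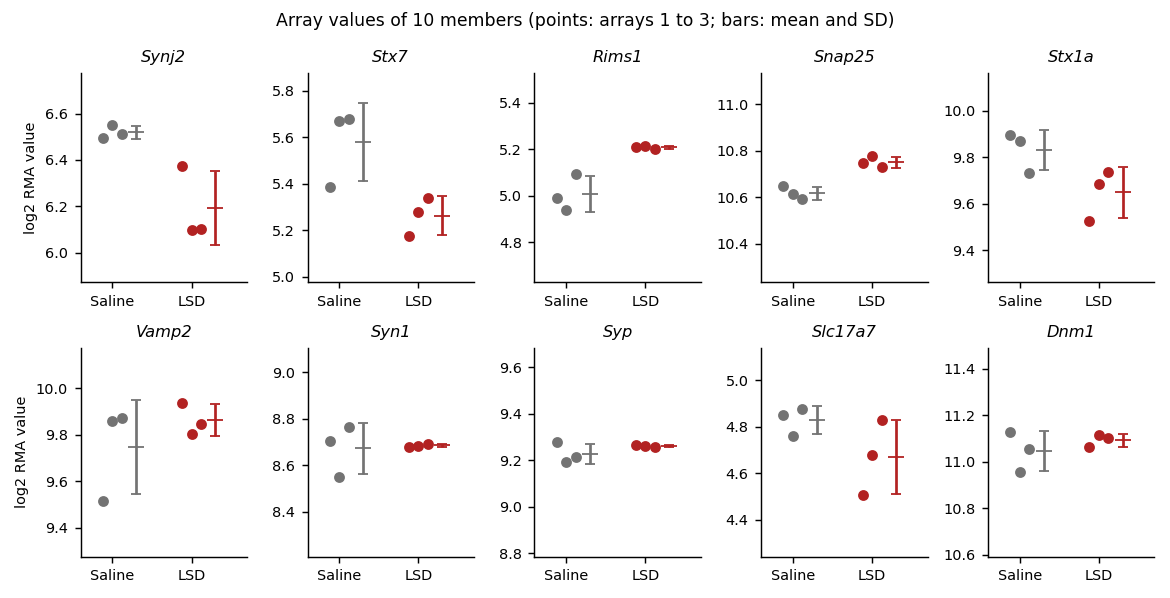
Log2 RMA value on each array for the members described in full, with Saline and LSD arrays side by side and bars for the group mean and SD. Each panel has its own axis range. Synj2, Stx7, Rims1 and Snap25 have separated groups, whereas Syn1, Syp, Slc17a7, Stx1a, Vamp2 and Dnm1 overlap.

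The priming and calcium-triggering group held 8 measured genes, with 4 higher, 4 lower and a median of -0.00017. The Unc13 genes encode the Munc13 proteins that open syntaxin, and they differed by -0.06 (Unc13a), -0.13 (Unc13b) and 0.02 (Unc13c). The complexins, which clamp and then promote fusion, gave 0.03 (Cplx1) and -0.12 (Cplx2). The calcium sensors Doc2a and Doc2b gave 0.07 and -0.02, and the Rab3 effector Rph3a gave 0.08. All 8 had overlapping groups.

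In the active zone scaffold 1 of 5 measured genes was higher and 4 were lower. Rims1, which tethers calcium channels and Rab3-bearing vesicles at the release site, read 4.99, 4.94 and 5.09 after saline and 5.21, 5.21 and 5.20 after LSD. The LSD arrays were almost identical (5.21 ± 0.0063, SD, n = 3) and lay above all Saline arrays (5.01 ± 0.078, SD, n = 3). The change was 0.20 ± 0.079 (SE), or 1.15-fold with a bound of 1.31-fold, at an unadjusted p of 0.0337 and an adjusted p of 0.971 in limma. Its own scaffold partner Bsn (Bassoon) differed by -0.08, and the Lin7 adaptors, which link the release site to channels and adhesion proteins, by -0.14 (Lin7a), -0.08 (Lin7b) and -0.06 (Lin7c).

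Endocytosis and the clathrin coat formed the largest group, with 16 measured genes, 11 of them higher and 5 lower, and a median of 0.04. Dynamin 1 (Dnm1), the GTPase that severs the vesicle neck in neurons, read 11.13, 10.96 and 11.05 after saline and 11.06, 11.11 and 11.10 after LSD. Its groups overlapped and its change of 0.05 ± 0.081 (SE) was bounded at 1.17-fold. Dnm2, its ubiquitous relative, gave 0.08.

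Synaptojanin 2 (Synj2), a phosphoinositide phosphatase, had the lowest p of the 48 members. It read 6.50, 6.55 and 6.51 after saline and 6.38, 6.10 and 6.10 after LSD. The Saline arrays were tight (6.52 ± 0.028, SD, n = 3) and all LSD arrays were below them (6.19 ± 0.16, SD, n = 3), with LSD 1 the nearest. The mean was 1.25-fold lower after LSD, a log2 change of -0.33 ± 0.098 (SE) with a bound of 1.46-fold. The unadjusted p in limma was 0.00962 and the adjusted p was 0.971. Its paralogue Synj1, the form concentrated in nerve terminals, differed by -0.08 in its brightest probe set.

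Of the AP-2 adaptor subunits, Ap2a2 differed by 0.19, Ap2m1 by 0.06 and Ap2b1 by -0.08. Ap2a2 read 5.38, 5.23 and 5.30 after saline and 5.43, 5.56 and 5.48 after LSD, and Ap2m1 read 10.10, 10.02 and 10.07 after saline and 10.16, 10.10 and 10.11 after LSD. Both were separated, Ap2m1 by a margin that vanishes on rounding. Endophilin A1 (Sh3gl2), which bends the membrane and recruits synaptojanin, read 7.61, 7.49 and 7.58 after saline and 7.64, 7.68 and 7.74 after LSD, a separated change of 0.12. The other endophilins gave 0.01 (Sh3gl1) and 0.02 (Sh3gl3). The clathrin chains gave 0.08 (Clta), 0.04 (Cltb) and -0.04 (Cltc), and the coat assembly protein Snap91 gave -0.02. Amphiphysin (Amph) and Bin1, which bring dynamin to the vesicle neck, both gave 0.04.

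**Figure D3:**
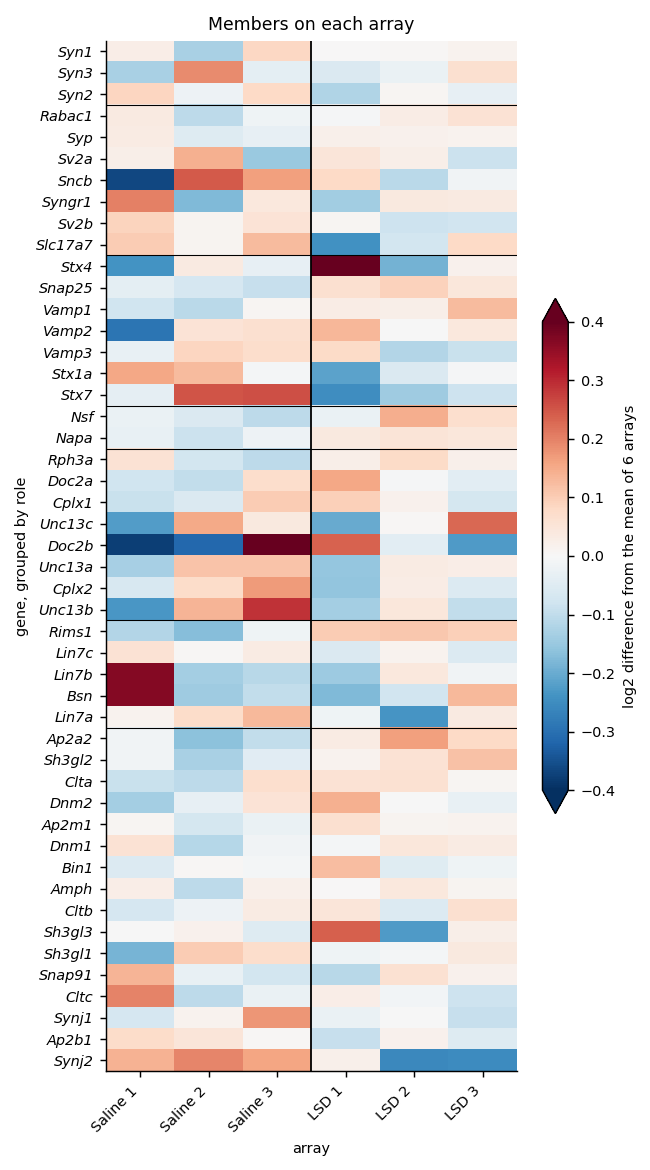
Deviation of each member from its own mean over the 6 arrays (log2 units, colour), with members in rows by role and the 3 Saline and 3 LSD arrays in columns. Stx7 is low on all 3 LSD arrays and Synj2 on LSD 2 and LSD 3, and Doc2b shows the single high value of Saline 3.

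The start-site sequences of the 3 genes with an unadjusted p below 0.05 are shown because these genes are the extremes of the list, and because GC boxes are frequent at the start sites of this machinery. Sequences are those of RefSeq for the GRCr8 assembly, written 5′ to 3′ on the gene's own strand, from 250 bases before to 50 bases after the annotated start. Capitals mark the GC box (GGGCGG, read on either strand).
Synj2, chr1:48923578-48923877, plus strand: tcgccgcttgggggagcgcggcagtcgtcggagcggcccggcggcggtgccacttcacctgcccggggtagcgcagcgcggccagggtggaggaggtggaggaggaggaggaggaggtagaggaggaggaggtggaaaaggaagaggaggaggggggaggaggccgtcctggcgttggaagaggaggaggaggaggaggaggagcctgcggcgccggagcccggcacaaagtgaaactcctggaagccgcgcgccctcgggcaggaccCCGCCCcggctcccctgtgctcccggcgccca
Stx7, chr1:23056416-23056715, minus strand: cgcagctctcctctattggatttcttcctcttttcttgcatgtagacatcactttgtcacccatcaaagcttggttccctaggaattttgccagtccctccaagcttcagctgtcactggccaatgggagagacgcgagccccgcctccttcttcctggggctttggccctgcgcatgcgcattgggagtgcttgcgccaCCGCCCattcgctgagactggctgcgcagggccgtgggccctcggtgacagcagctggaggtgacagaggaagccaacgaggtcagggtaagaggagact
Rims1, chr9:32692723-32693022, minus strand: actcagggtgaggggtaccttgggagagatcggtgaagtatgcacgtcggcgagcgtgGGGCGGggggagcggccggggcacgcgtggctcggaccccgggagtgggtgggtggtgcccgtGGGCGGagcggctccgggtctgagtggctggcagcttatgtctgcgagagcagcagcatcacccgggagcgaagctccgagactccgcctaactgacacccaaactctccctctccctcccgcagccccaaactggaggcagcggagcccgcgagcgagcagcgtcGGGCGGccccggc
Rims1 holds GC boxes that begin 192 and 129 bases before the start, and another that begins at base 38, counting the start as base 1. Stx7 has 1 that begins 50 bases before its start. Synj2 has 1 that begins at base 19, counted in the same way. A match is a description of letters and not of a bound site.

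Promoter sequences were matched for 46 of the 55 listed genes. A GC box was found in 33 of them (71.7%), beside 33.1% of 33469 promoters in all and 56.2% of 3880 promoters of genes on the array. Their median GC content was 64.7%, beside 51.7% over all promoters and 60% over genes on the array. The full cyclic AMP response element (CRE, TGACGTCA, the same on both strands), which the activity-regulated factor CREB binds, was found in 6 of 46 (13.0%), beside 1.83% of all promoters and 2.42% of those on the array. The EGR motif (GCGGGGGCG or GCGTGGGCG, both strands), named for the immediate early factors, was found in 8 (17.4%), beside 3.20% and 5.70%. It was present in Syn1, Syn2, Syp, Vamp2, Nsf, Cplx1, Sh3gl1 and Sh3gl2. The E-box CACGTG was found in 2 (4.35%), beside 6.42% and 8.48%. The short CRE form TGACG, which lies within the full CRE, was found in 22 (47.8%), beside 21.2% and 28.5%. These searches were made after the expression values were known, and the difference in base composition was not corrected for.

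The 6 promoters with a full CRE are shown with 20 bases on each side, since CREB is a factor through which stimulated neurons are known to switch on genes. Capitals mark the CRE.
Napa, chr1:85915356-85915403, plus strand: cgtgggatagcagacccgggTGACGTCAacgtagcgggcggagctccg
Vamp1, chr4:159698803-159698850, plus strand: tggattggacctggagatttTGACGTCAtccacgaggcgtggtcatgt
Sh3gl2, chr5:104699184-104699231, plus strand: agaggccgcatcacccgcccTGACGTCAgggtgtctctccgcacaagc
Syn1, chrX:3725535-3725582, plus strand: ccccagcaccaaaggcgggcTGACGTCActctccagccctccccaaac
Cltb, chr17:10006593-10006640, plus strand: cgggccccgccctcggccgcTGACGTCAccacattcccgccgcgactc
Ap2b1, chr10:68600641-68600688, plus strand: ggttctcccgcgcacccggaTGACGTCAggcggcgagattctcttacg
Napa, Vamp1 and Sh3gl2 (0.09, 0.12 and 0.12 log2) are among the members whose LSD arrays all lay above the Saline arrays. That separation was seen in 7 of 48 members (14.6%, beside 6.97% of all genes). Syn1, Cltb and Ap2b1 (0.01, 0.04 and -0.08) had overlapping groups. None of the 6 had an unadjusted p below 0.05. Any link between a CRE and the change was not tested.

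Of the 48 members, 16 were read by more than 1 probe set, which gives a second look at the same gene within the same arrays. At an adjusted p of 0.05 in limma, 0 of 71 member probe sets passed, against 6 of 8740 (0.0686%) over the array, and 7 had an unadjusted p below 0.05 (9.86%, beside 3.92%), 4 higher and 3 lower. Beyond the brightest set of each gene there were 23 further sets, of which 12 had the sign of the brightest and 11 the opposite. In Napa, Vamp1, Snap25, Clta, Cltb, Bin1, Lin7a and Syngr1 a further set is built on the source sequence of the brightest. Such a set is not an independent reading. Snap25 had 3 further sets, with changes of 0.10, 0.13 and -0.06, Stx1a had 1 with -0.09, and Vamp2 had 1 with -0.01. Nsf (0.15), Napa (0.07) and Vamp1 (0.11) kept the sign of their brightest set. The sets of Ap2b1 (0.09 and 0.22 against -0.08) did not. The further sets of Ap2b1, Stx1a and Vamp2, and those of Snap25 at 0.13 and -0.06, end in _s_at. Sets of that kind can match more than 1 transcript, so their signals cannot be assigned with certainty. The brightest sets of Vamp3 and Snap91 also end in _s_at, and the same limit holds for them.

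**Figure D4:**
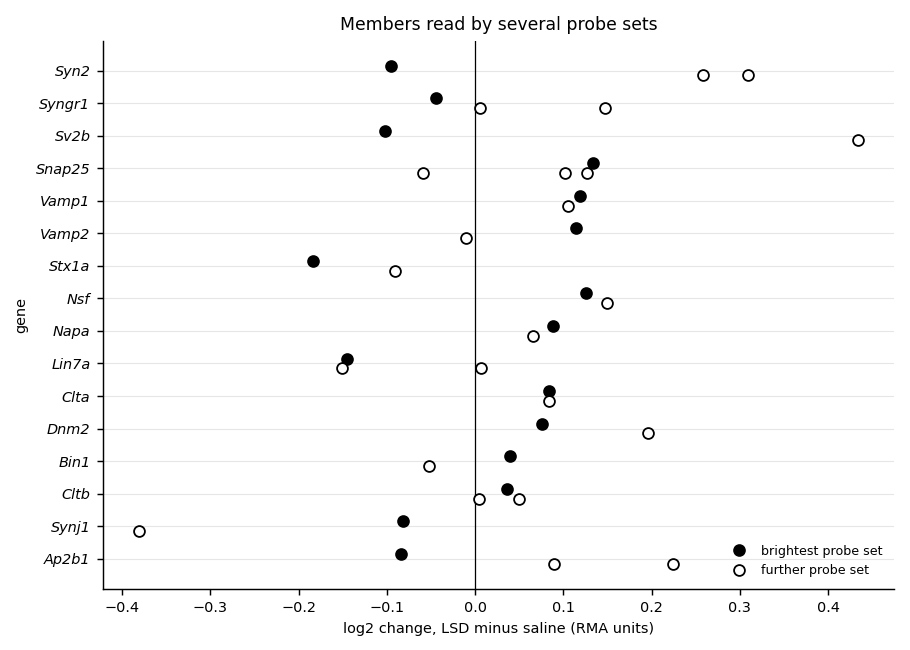
Log2 change (LSD minus Saline) of each probe set for the 16 members read more than once, with the brightest set and the further sets marked separately. Sv2b (0.43 against -0.10) and Syn2 (0.31 and 0.26 against -0.10) hold sets of opposite sign, and Synj1 sets of unequal size (-0.38 and -0.08).

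Sv2b gave the lowest p of any member probe set, and in the direction opposite to its brightest set. The set L10362_at read 7.03, 7.14 and 7.11 after saline and 7.55, 7.48 and 7.56 after LSD. Both groups were tight (7.10 ± 0.054 and 7.53 ± 0.044, SD, n = 3 each) and the LSD arrays were all higher, by 0.43 ± 0.080 (SE). Its unadjusted p was 0.000621 and its adjusted p over all probe sets was 0.258 in limma, and with array weights the adjusted p was 0.0400 (0.39 log2). The brightest set, rc_AI639484_at, read 9.62, 9.54 and 9.58 after saline and 9.53, 9.44 and 9.45 after LSD, also without overlap but lower after LSD. Which of these sets reports the main Sv2b transcript was not tested.

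The sets of Syn2 also differed in sign. For Syn2, the set rc_AI145494_at read 6.07, 6.23 and 6.38 after saline and 6.65, 6.55 and 6.40 after LSD, a difference of 0.31 ± 0.11 (SE) at an unadjusted limma p of 0.0231. The groups were separated by a narrow margin between Saline 3 and LSD 3. The set rc_AI145494_g_at, which is built on the same source sequence and is therefore not an independent reading, differed by 0.26 ± 0.10 (SE). The brightest Syn2 set read 6.94, 6.83 and 6.93 after saline and 6.74, 6.86 and 6.82 after LSD, overlapping and with the opposite sign.

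For Synj1 the sets shared their sign and differed in size. The set AJ006855_s_at read 6.30, 6.62 and 6.53 after saline and 5.88, 6.17 and 6.25 after LSD. All LSD arrays lay below all Saline arrays, by -0.38 ± 0.13 (SE) at an unadjusted limma p of 0.0177, while the brightest set read 7.42, 7.50 and 7.66 after saline and 7.46, 7.48 and 7.39 after LSD. Both signs were negative, but only the dimmer set was separated. The adjusted p was 0.981 for the further sets of Syn2 and Synj1. The ending _s_at marks a set that can match more than 1 transcript, so this signal cannot be assigned to Synj1 with certainty.

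**Figure D5:**
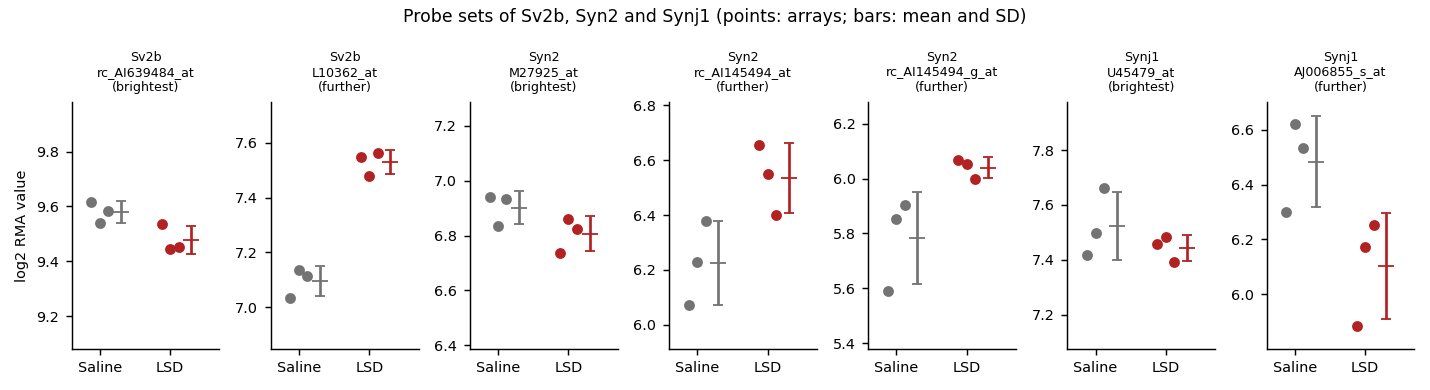
Log2 RMA value on each array for the probe sets of Sv2b, Syn2 and Synj1, Saline and LSD arrays side by side, with bars for the mean and SD and an axis range of its own in each panel. The LSD arrays of Sv2b are higher in L10362_at (7.53 against 7.10) and lower in the brightest set (9.48 against 9.58).

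Other genes of release and recycling outside the list were read on the same arrays. Of 76 measured, 0 passed the adjusted threshold in limma. An unadjusted p below 0.05 was found in 5 (6.58%, beside 3.63% of all genes), all with higher values after LSD, where all genes gave 117 higher and 55 lower. In all, 44 were higher and 32 lower with a median of 0.04. The 25 other release genes divided into 17 higher and 8 lower, the 13 synaptotagmins into 7 and 6, the 18 genes of vesicle filling and membrane into 10 and 8, and the 20 other recycling genes into 10 and 10. The lowest p belonged to Syt4, an activity-regulated synaptotagmin, which read 7.13, 7.10 and 7.15 after saline and 7.48, 7.42 and 7.40 after LSD (0.30 ± 0.075, SE). Syt1, the calcium sensor of fast release, read 5.83, 5.76 and 5.95 after saline and 6.12, 6.24 and 6.17 after LSD (0.33 ± 0.087, SE). Neither overlapped between groups, and both had an adjusted p of 0.951 in limma. Next were the endosomal GTPase Rab7a (0.21) and the SNARE Ykt6 (0.23). The lowest p values among lower genes were those of the proton pump subunit Atp6v0c (-0.15), the lipid kinase Pi4ka (-0.24), Stxbp2 (-0.23) and Syt17 (-0.13). These values are those of the brightest probe set. Syt4, Ykt6, Atp6v0c and Pi4ka have further sets that are not described here.

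Markers of other cells and RNA quality were read on the same arrays. The mean deviations per array of the excitatory (6 genes), inhibitory (12), astrocyte (10), oligodendrocyte (7), microglia (8) and endothelial (6) markers overlapped between groups. Single markers of a list went both ways. Among the astrocyte markers 3 of 10 had an unadjusted limma p below 0.05 (beside 3.63% of all genes), Aqp4 at 0.41, Slc1a3 at -0.25 and S100b at -0.24. Separated groups were found in 4 of those 10 (beside 10.3% of all genes). Among the inhibitory markers 2 of 12 were separated, Tac1 at -0.32 and Reln at 0.16. Among the excitatory markers Nptx1 was separated at 0.27, whereas Camk2a (-0.19), Neurod1 (-0.19), Nrgn (0.06), Rorb (0.02) and Neurod2 (0.02) overlapped. The mean deviations of the 7 striatal markers measured of 10 listed did not overlap. They lay between 0.059 and 0.114 on the Saline arrays and between -0.127 and -0.038 on the LSD arrays. Of the 7 genes, 6 had lower means after LSD. Groups were separated in 4, all lower: Penk (-0.46), Arpp21 (-0.36), Rgs9 (-0.18) and Adora2a (-0.11). An unadjusted limma p below 0.05 was found in 2, Penk and Arpp21. For beta-actin the 3′ signal minus the 5′ signal, which grows as RNA degrades, was 0.787 ± 0.044 after saline and 0.687 ± 0.041 after LSD (SD, n = 3 each) without overlap, whereas that of Gapdh overlapped (0.523 ± 0.043 and 0.492 ± 0.091). The part of markers or RNA integrity in the differences of Synj2, Stx7, Rims1 or Snap25 was not tested. Nrgn, 1 of the excitatory markers, read 10.99 ± 0.014 after saline and 11.05 ± 0.064 after LSD (SD, n = 3 each). Whether the share of striatal tissue differed between groups was not tested.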

How the data were processed

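The deposited values were log2 values that the authors made with the rma function of affy, which corrects background, quantile-normalises arrays and summarises each probe set. The affy version is not given in the sources used here. A shift shared by most transcripts is therefore hidden. Of 8799 probe sets, 59 controls were left out. The platform annotation gave 1 symbol to 7006 probe sets, several to 308 and none to 1426. The set with the highest mean stood for its gene. All 48 measured members matched a RefSeq gene by identifier.

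Groups were compared over all genes or probe sets with the limma package (version 3.58.1, under R 4.3.3; functions lmFit and eBayes, two-sided, no covariate, Benjamini-Hochberg adjustment, threshold 0.05), and the script was tested on simulated data. Alternatives were other scalings, filters, priors, array weights, a replicate block, other probe set rules and leaving out each array. Members given array by array had an unadjusted p below 0.05, or separated groups with a change of at least 0.2, or belonged to a core set (Snap25, Stx1a, Vamp2, Syn1, Syp, Slc17a7 and Dnm1), and Nsf, other separated members and the discordant probe sets were added after their values were seen. Pathway genes were named up to 4 per direction by lowest p. The rule for members uses no measured value, but members and lists were chosen with earlier results of these data known. Arrays have no read depth, and their number limits the precision.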

Additional observations from a re-analysis of the deposited data

How the results depend on the processing

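No listed gene and no other pathway gene passed an adjusted p of 0.05 in limma under any of the 15 alternatives, and 1 member probe set (Sv2b, L10362_at) passed with array weights. The number of members with an unadjusted p below 0.05, 3 in the reported fit, was 1 among genes above the median level, where 36 members were left (2.78%, beside 7.05% of all genes), 8 with array weights (16.7%, beside 14.8%), and 6 whether a gene was given the mean of its probe sets or its most variable one (12.5%, beside 3.89% and 3.55%). Leaving out 1 array gave 1 to 5 such members (2.08% to 10.4%, beside 2.81% to 9.31% of all genes) and 12 to 22 without overlap (25.0% to 45.8%, beside 16.7% to 28.8%; without LSD 1, 25.0% beside 22.3%), 0 probe sets past the threshold and a median change of 0.0055 to 0.045 (the highest without Saline 3). The median was -0.012 with array weights. The most variable set of a gene was picked by variance over all arrays, which includes any difference between groups. That rule added Sv2b, Syn2 and Synj1 to the 3 members with an unadjusted limma p below 0.05 in the reported fit. With a replicate block 2 members (Stx7 and Synj2) had an unadjusted p below 0.05 (4.17%, beside 2.79%) and 0 passed the threshold. Same-numbered arrays did not deviate together (correlations of -0.024, -0.229 and 0.154), so the numbers were not taken as pairs. Synj2 ran from -0.42 to -0.28 and had an unadjusted p below 0.05 in 15 of 15 alternatives, Stx7 from -0.41 to -0.27 in 11 of 14, Rims1 from 0.17 to 0.24 in 7 of 14 and Snap25 from 0.08 to 0.21 in 4 of 15. L10362_at of Sv2b ran from 0.39 to 0.46. The sign was the same under every alternative for 25 of 48 members. No detection calls were used, so dim sets such as those of Slc17a7, Rims1, Unc13c and Lin7c are less certain. The cause of the shifts between alternatives was not tested.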

Other observations

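The arrays of the LSD group lay closer together than those of the Saline group in most of the release and recycling genes. The SD was lower after LSD in 32 of 48 members (66.7%), beside 53.5% of all genes. The LSD values of Syn1, Syp, Rims1 and Napa were almost identical. Other members went the other way, such as Sh3gl3 (SD 0.036 after saline and 0.232 after LSD), Synj2 (0.028 and 0.159) and Stx4 (0.142 and 0.303). Without Saline 1, the array that stood apart, the SD was lower after LSD in 20 of 48 members (41.7%), beside 32.2% of all genes. The SD of 2 arrays tends to be smaller than that of 3, so these shares are lowered by the smaller Saline group as well and cannot be set against those of the full groups.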
